A study of Mus musculus with 31 samples.

Results

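Integrins are paired surface receptors, each made of an alpha and a beta chain, and talins and kindlins are the cytoplasmic proteins that bind the beta tail and switch the pair to its active form. The 30 genes followed here were 25 integrin subunits, 2 talins and 3 kindlins, taken by name where a row was present in both deposited tables, out of 20314 rows. The platelet subunit Itga2b was left out of the members and kept as a marker of megakaryocytes. By textbook use the subunits were divided into 7 leukocyte chains (Itgal, Itgam, Itgax, Itgad, Itgae, Itgb2, Itgb7), 16 chains of matrix receptors and 2 shared chains (Itga4, Itga9). The matrix chains comprised 4 collagen-binding alpha chains (Itga1, Itga2, Itga10, Itga11), 4 chains of laminin receptors (Itga3, Itga6, Itga7, Itgb4), 7 chains of receptors that recognise the RGD motif (Itga5, Itga8, Itgav, Itgb3, Itgb5, Itgb6, Itgb8) and the common partner Itgb1.

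The study profiled expandable hemangioblasts (eHBs), mouse progenitor lines that can be turned towards blood or endothelium, with their progeny and with control cells, by RNA-seq of 31 libraries in 9 groups. The 5 eHB lines grew with 2 µg/mL doxycycline. Of these, the ES-derived pair (RB3.6.5, RB4.6.9; ES, embryonic stem) was kept in VEGF, 8-bromo-cAMP, SB431542, BMP4 and FGF2; the embryonic fibroblast line M5 and the fetal liver lines FL4 and FL10 were kept with FGF2 as the only other factor. Each line entered each group as 1 library. Endothelial cultures were the same 5 lines after 3 days in a mixture of VEGF, 8-bromo-cAMP, SB431542, BMP4 and FGF2 without doxycycline, and they were not sorted. For the ES-derived lines this step removed doxycycline alone, while for M5, FL4 and FL10 it also changed the factors. Day 2 and day 3 blood came from the 5 lines in CHIR99021, SCF, IL-3 and Flt3L at 1.5% oxygen. Day 2 cells were sorted as VE-cadherin-positive without CD45 and day 3 cells as VE-cadherin-positive with CD45. The controls were 3 ES lines (RB2, RB3, RB4) in CHIR99021, PD0325901 and LIF, Kdr-sorted mesoderm made from these 3 lines over 4 days with Activin A, CHIR99021, BMP4 and FGF2, hematopoietic stem cells of E14.5 in 1 library (HSCs; CD45+ CD201+ CD150+ CD48-, not cultured), and VE-cadherin- and Pecam1-positive endothelium of E11.5 yolk sac (n = 2) and embryo (n = 2). All cultures grew on Matrigel, a basement membrane extract rich in laminin. Each replicate of the eHB, endothelial and blood groups was a different line, and nothing in the labels states whether the yolk sac or embryo replicates were separate animals, so p-values there measure only the spread between the samples.

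Some of the leukocyte integrins share the beta chain Itgb2 (CD18). It pairs with Itgal to form LFA-1, with Itgam to form Mac-1 and with Itgax to form CD11c/CD18. These receptors bind ICAMs and complement fragments, and Itgb7 is a separate beta chain. Matrix receptors hold adherent cells to collagen, laminin and fibronectin through Itgb1, or to vitronectin and fibrinogen through Itgb3 and Itgb5. Tln1 is the widely used talin, Tln2 its paralog, Fermt1 (kindlin-1) is epithelial, Fermt2 (kindlin-2) is broadly used by adherent cells, and Fermt3 (kindlin-3) serves blood cells and platelets.

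The total of expected counts ranged from 9424412 in a day 3 blood library to 79497758 in the HSC library. Replicates of every group differed by more than sampling noise. The 6 endothelial markers summed to 4943 to 6650 TPM (length-scaled transcript abundance) in the endothelial cultures and to 4079 to 5748 TPM in the E11.5 endothelium. In day 2 blood, 5 erythroid markers summed to 2142 to 53635 TPM and 6 megakaryocyte markers to 595 to 20846 TPM. In day 3 blood, 5 neutrophil markers summed to 1316 to 26711 TPM and 7 macrophage markers to 100 to 400 TPM. Day 3 blood also held the megakaryocyte markers at 481 to 11975 TPM and the erythroid markers at 223 to 8052 TPM. In bulk libraries such as these, fewer cells of a type and less RNA per cell cannot be told apart.

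Promoter windows are shown for 4 genes on which the results turn. Itgam and Itgax, neighbours on chromosome 7, were higher in day 3 blood than in day 2 blood. Itga2 was the member with the largest rise in endothelial cultures, and Fermt3 is the blood kindlin. The sequences are the 250 bases before the start given by RefSeq on GRCm38.p6, read 5′ to 3′ on the gene's strand. Capitals mark GAGGAA, a core bound by PU.1-type ETS factors, and AGATAA, a site bound by GATA factors, on either strand; the 2 motifs do not overlap here. Itgam lies at chr7:128062390-128062639 on the plus strand, Itgax at chr7:128129300-128129549 on the plus strand, Itga2 at chr13:114932101-114932350 on the minus strand, and Fermt3 at chr19:7019470-7019719 on the minus strand.
Itgam: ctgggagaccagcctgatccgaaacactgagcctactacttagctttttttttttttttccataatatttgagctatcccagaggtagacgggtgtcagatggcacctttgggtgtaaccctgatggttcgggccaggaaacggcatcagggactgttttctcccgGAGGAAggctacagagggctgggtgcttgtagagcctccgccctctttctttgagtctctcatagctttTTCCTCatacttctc
Itgax: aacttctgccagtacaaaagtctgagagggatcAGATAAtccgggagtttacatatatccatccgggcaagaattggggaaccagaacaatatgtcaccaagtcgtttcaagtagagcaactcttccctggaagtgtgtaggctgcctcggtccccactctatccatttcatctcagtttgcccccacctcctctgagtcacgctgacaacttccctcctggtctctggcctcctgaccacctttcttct
Itga2: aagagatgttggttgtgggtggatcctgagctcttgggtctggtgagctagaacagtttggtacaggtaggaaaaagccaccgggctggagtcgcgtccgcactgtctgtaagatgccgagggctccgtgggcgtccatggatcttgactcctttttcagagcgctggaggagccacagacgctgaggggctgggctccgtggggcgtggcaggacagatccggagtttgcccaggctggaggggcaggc
Fermt3: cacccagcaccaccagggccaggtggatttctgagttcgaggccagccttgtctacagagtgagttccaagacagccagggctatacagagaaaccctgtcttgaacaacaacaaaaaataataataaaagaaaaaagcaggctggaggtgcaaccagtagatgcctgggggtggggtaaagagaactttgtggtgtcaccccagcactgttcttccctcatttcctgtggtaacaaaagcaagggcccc
The Itgam window held 2 GAGGAA matches and no AGATAA, the Itgax window held 1 AGATAA and no GAGGAA, and the windows of Itga2 and Fermt3 held neither. GAGGAA occurs in 23.3% and AGATAA in 9.99% of the 32851 promoter windows of the same length in the RefSeq table. Among the 21 members with a window, 8 held GAGGAA and 1 held AGATAA. The kindlin windows differed in composition: the Fermt2 window was 76% G and C with 5 matches to GGGCGG, the GC box, and the Fermt3 window was 50% G and C with none. GGGCGG occurs in 32.7% of all windows. These matches describe the letters of the windows only.

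With Itga2b left out, the summed level of the subunits was highest in endothelial cultures. The 25 subunits summed to 2868 to 4061 TPM there, against 316 to 605 TPM in the eHB lines, 977 to 1287 TPM in embryo endothelium and 774 to 1873 TPM in day 3 blood. Itga2b alone reached 3991 TPM in day 2 blood of M5 and 2984 TPM in day 3 blood of RB3.6.5, so the order would not hold for those libraries with it included. Leukocyte chains made up 26.8% to 68.3% of the subunit TPM in day 3 blood, 5.06% to 26.3% in day 2 blood, 20% in HSCs and 0.0155% to 0.326% in endothelial cultures. Itga2b is left out of these shares as well. With it included they would be lower, as in day 2 blood of M5 and day 3 blood of RB3.6.5. Itgb1 was the main beta chain of endothelial cultures (76.2% to 92.9% of beta TPM), Itgb5 that of ES cells (56.1% to 58.9%), and Itgb3 held 26.7% to 75.3% in day 2 blood. Itgad, Itga11, Itgb6, Itgb8 and Fermt1 stayed under 1 TPM in all 31 libraries, and 4 were at 1 TPM or more in every library.

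**Figure D1:**
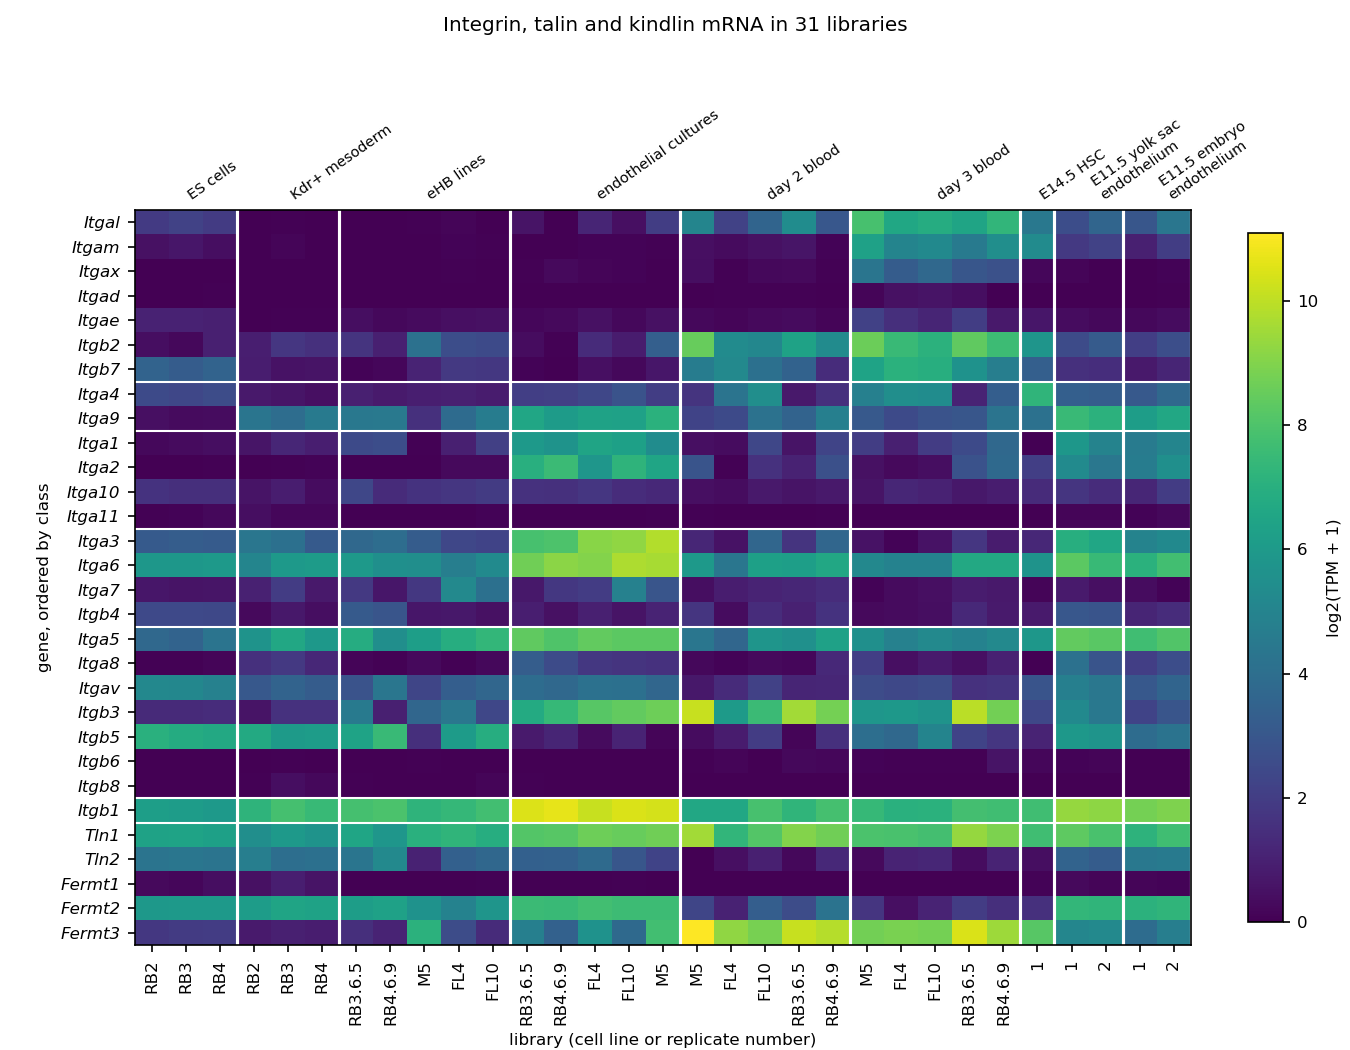
Level of each of the 30 genes (rows, ordered by class) in each of the 31 libraries (columns, grouped by sample type), coloured by log2(TPM + 1). Of the leukocyte rows at the top, Itgal, Itgam, Itgax, Itgb2 and Itgb7 are bright in day 3 blood, and Itgad and Itgae stay dim. The matrix rows Itga3, Itga6 and Itgb1 are brightest in endothelial cultures. Itga5 is of similar brightness there and in yolk sac endothelium.

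ES cells already carried transcripts of some leukocyte chains, and most of them fell on the way to mesoderm. Of the 24 members tested, 10 were higher and 10 lower in mesoderm than in ES cells, against 39.1% of all genes tested called higher and 40% lower, so the members changed about as often as other genes. Itgb7, the beta chain of the gut homing receptor, was 10.6, 8.45 and 10.6 TPM in ES lines RB2, RB3 and RB4 and 0.834, 0.448 and 0.48 TPM in the mesoderm made from them. The groups did not overlap, and the log2 fold change was -3.73 ± 0.29 (SE; edgeR quasi-likelihood test, adjusted p = 3.26e-06). Itgal was 2.72 to 3.51 TPM in ES cells and at most 0.041 TPM in mesoderm (-6.61 ± 0.46, edgeR adjusted p = 1.83e-06). Of 5 leukocyte markers, Laptm5 stood at 247 to 290.4 TPM in ES cells while Ptprc, which encodes CD45, was at most 0.065 TPM. Itgb2 went against its class: it was 0.183 to 0.956 TPM in ES cells and 0.915 to 2.35 TPM in mesoderm, higher by 2.14 ± 0.55 with overlapping groups (edgeR adjusted p = 0.0061); with all 9 groups in 1 fit no leukocyte chain was called higher by edgeR, and none had an unadjusted p under 0.05.

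The fibronectin and common matrix chains rose in mesoderm. Itga5, the fibronectin receptor alpha chain, was 12.3, 10.6 and 18.4 TPM in ES cells and 51.2, 100.5 and 58.5 TPM in mesoderm (2.65 ± 0.27, edgeR adjusted p = 3.67e-05). Its partner Itgb1 rose from 62.4 to 74.3 TPM to 146 to 228 TPM (1.75 ± 0.12, edgeR adjusted p = 1.66e-06), with no overlap. Itga9, a receptor chain for tenascin and VCAM1, had the largest rise, from 0.248 to 0.381 TPM to 14.4 to 23 TPM (6.42 ± 0.33, edgeR adjusted p = 4.4e-07). Itga9 is at chr9:118606690-118901003 and Itga5 at chr15:103344286-103366763 in the GENCODE annotation of GRCm38.

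For the matrix class, 3 chains were called in the direction opposite to most called members of their class: Itgav, Itgb4 and Itga10 were lower in mesoderm. Itgav, the vitronectin receptor alpha chain, was 28.3 to 35.5 TPM in ES cells and 7.32 to 10.4 TPM in mesoderm (-1.60 ± 0.12, edgeR adjusted p = 2.62e-06), and its partner Itgb5 was 102 to 131 TPM and 65 to 106 TPM (-0.19 ± 0.21, edgeR adjusted p = 0.442). Of the adaptors, Fermt2 was higher by 0.74 ± 0.08 (edgeR adjusted p = 3.95e-05) and Tln1 lower by -0.35 ± 0.09 on the log2 scale (edgeR adjusted p = 0.00619). Both calls were lost when all 9 groups shared a spread estimate (adjusted p = 0.203 and 0.692), and the count of called members then fell from 20 to 13.

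Few members were called between the eHB lines and mesoderm. Here 2 of 24 tested members were higher and 4 lower, against 23.5% and 23.1% of all genes. None met the naming rule, since the called genes were low or overlapped, so the 6 were named after their values were seen. Fermt2, Itga8, Itga11 and Fermt1 were lower, and Itga10 and Itgae higher. Fermt2, the only one above 5 TPM, was 29 to 81.7 TPM in eHB and 69.3 to 89.4 TPM in mesoderm (-0.83 ± 0.27, edgeR adjusted p = 0.0353). Its call was lost with limma, with all 9 groups in 1 fit, and without any 1 of the 3 mesoderm libraries or the M5 or FL10 eHB library. DESeq2 called 11 members here, adding Itga6, Itga7, Itgb3, Itgb4 and Tln1.

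Line M5 stood apart from the other eHB lines for several members. Values of the 5 lines are given from here on in the order RB3.6.5, RB4.6.9, M5, FL4 and FL10. Itgb5 was 85.2, 185, 1.85, 67.6 and 119 TPM, Itga9 was 20.9, 21.5, 1.92, 13.7 and 24.2 TPM, and Fermt3 was 1.83, 1.12, 139, 4.94 and 1.59 TPM. Itgb2 was also highest in M5, at 16.8 TPM against 0.982 to 5.13 TPM. The megakaryocyte marker sum of the M5 eHB library was 56.4 TPM, between those of FL4 (81.6 TPM) and RB3.6.5 (22.6 TPM). Its erythroid sum was the highest of the 5, at 65.9 TPM against 1.07 to 25.3 TPM, and its smooth muscle and pericyte sum the lowest, at 7.42 TPM against 60.4 to 195 TPM. Their part in the levels of these members was not tested.

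Endothelial cultures had higher levels of Itga3, Itga6, Itga1, Itga2 and Itgb1 than the eHB lines. Of 22 members tested, 12 were higher and 1 lower than in eHB, against 34.3% and 35.6% of all genes. Of the 13 tested matrix chains, 8 rose and 1 fell, with a median log2 fold change of 2.86 beside -0.04 for all genes, and of the 3 leukocyte chains tested none was called in the edgeR fit without a block or had an unadjusted p under 0.05 there. DESeq2 called 1 lower (Itgb7), and edgeR with the line as a block called 2 lower (Itgb2 and Itgb7). Of the other laminin and collagen chains, Itgb4 was 3.21 TPM on average in eHB and 0.792 TPM in the cultures, not called by edgeR (-1.94 ± 0.84, adjusted p = 0.062) but called lower by DESeq2, and Itga10 was not called (-0.45 ± 0.28, edgeR adjusted p = 0.169).

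Itga2, the alpha chain of the collagen receptor alpha2beta1, was almost absent from the eHB lines at 0.011, 0.011, 0, 0.2 and 0.222 TPM. It reached 129, 186, 91.7, 56 and 147 TPM in the endothelial cultures of the same lines, a log2 fold change of 10.39 ± 0.81 (edgeR adjusted p = 1.96e-06), with every culture above every eHB library. Its neighbour Itga1, a second collagen receptor chain, was 4.69, 5.19, 0.032, 0.938 and 3.28 TPM in eHB and 62.1, 50.2, 41.4, 87.1 and 78 TPM in the cultures (4.55 ± 0.84, edgeR adjusted p = 0.000716). Itga2 lies at chr13:114833081-114932100 and Itga1 at chr13:114953096-115101964, both on the minus strand.

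Of the 3 alpha chains that pair with Itgb1 to bind laminin, Itga3 and Itga6 rose. Itga7 was 11.6 TPM on average in eHB and 8.28 TPM in the cultures and was not called (-0.49 ± 1.18, edgeR adjusted p = 0.725). Itga3 was 12.3, 14.8, 8.27, 4.2 and 3.63 TPM in eHB and 231, 255, 911, 557 and 602 TPM in the cultures (5.94 ± 0.59, edgeR adjusted p = 9.14e-06). The 3 lines not derived from ES cells were the highest. Itga6 was 60.6, 45.4, 43.2, 26.2 and 38.5 TPM in eHB and 413, 575, 799, 526 and 838 TPM in the cultures (3.93 ± 0.27, edgeR adjusted p = 9.75e-07). Itgb1 rose with them from 146 to 248 TPM to 1145 to 1662 TPM (2.86 ± 0.16, edgeR adjusted p = 3.31e-07). For none of these genes did the groups overlap.

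Transcripts of Itgb3 and Itgb5, beta chains of vitronectin receptors, moved in opposite directions. Receptor pairs were not measured, and in the M5 eHB library Itgb3 (11.49 TPM) was already above Itgb5 (1.85 TPM). Itgb3 was 22, 0.937, 11.49, 20 and 4.11 TPM in eHB and 111, 174, 405, 299 and 341 TPM in the endothelial cultures (4.55 ± 0.80, edgeR adjusted p = 0.00051). Itgb5, the only member called lower, dropped to 0.718, 1.23, 0.105, 0.269 and 1.17 TPM (-6.95 ± 1.11, edgeR adjusted p = 0.000268), below every eHB line, M5 included. Their common partner Itgav was 3.99 to 19.7 TPM in eHB and 11.6 to 16.7 TPM in the cultures and was not called (0.53 ± 0.36, edgeR adjusted p = 0.207). Itga5 rose to 260.3 to 343 TPM (1.62 ± 0.30, edgeR adjusted p = 0.000758), and the shared chains Itga9 (2.59 ± 0.56, edgeR adjusted p = 0.00188) and Itga4 (2.21 ± 0.23, edgeR adjusted p = 1.14e-05) rose too. With the line as a block, 3 further members were called: Itgb2 (-2.24 ± 0.46, edgeR adjusted p = 0.00484) and Itgb7 (-2.16 ± 0.66, edgeR adjusted p = 0.0238) lower, and Fermt3 higher (2.84 ± 0.52, edgeR adjusted p = 0.00294).

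**Figure D2:**
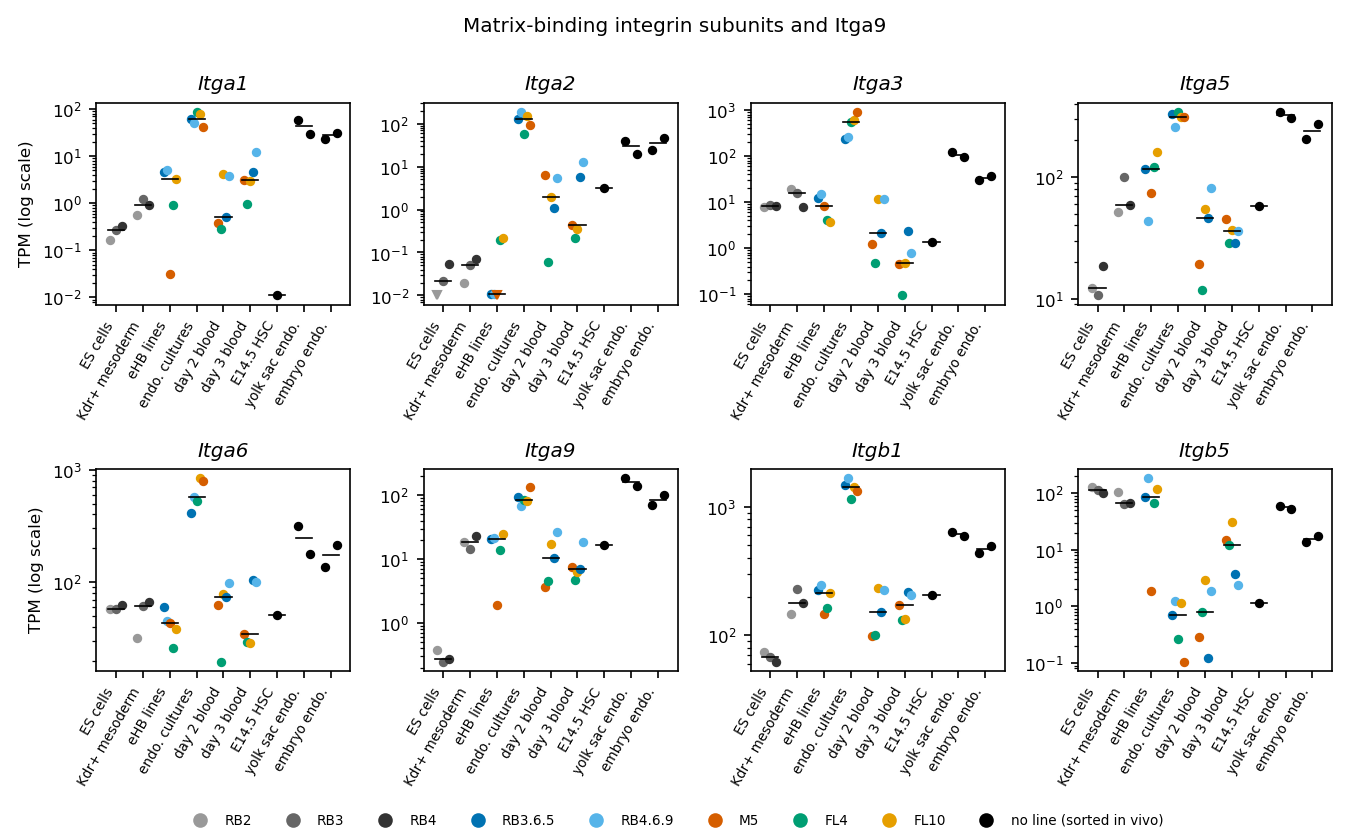
TPM on a log scale of 7 matrix-binding subunits and the shared chain Itga9 in each library, by group, with 1 point a library coloured by line and a bar at the group median. Points drawn as triangles lie at or below 0.01 TPM. Itga2 goes from at most 0.222 TPM in eHB lines to 56 TPM or more in endothelial cultures, and Itgb5 runs the other way.

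Some leukocyte chains were raised in day 2 blood, and others in day 3 blood only. Day 2 cells were sorted without CD45 and day 3 cells with it, so day and sort cannot be told apart. By day 2, in cells sorted without CD45, 10 of 23 tested members were higher and 6 lower than in eHB, against 28.5% and 25.5% of all genes. Itgal, the LFA-1 alpha chain, was at most 0.095 TPM in eHB and 41.1, 7.16, 32.4, 3.49 and 11 TPM on day 2 (9.88 ± 1.10, edgeR adjusted p = 0.000142). Its partner Itgb2 was 82.6, 39.3, 368, 40.5 and 34.3 TPM on day 2 (5.14 ± 1.11, edgeR adjusted p = 0.00359), above every eHB library. Itgb7 rose as well (4.56 ± 1.14, edgeR adjusted p = 0.00734), with overlapping groups. Itgal lies at chr7:127296260-127335138 and Itgb2 at chr10:77530252-77565708.

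Itgb3, which pairs with Itga2b on platelets and with Itgav elsewhere, was the most abundant of the 25 subunits in 3 of the 5 day 2 libraries (RB3.6.5, RB4.6.9 and M5). Itga2b, which is not among the 25, was higher than Itgb3 there, at 1497, 1441 and 3991 TPM. Itgb3 was 747, 444, 1144, 64.9 and 189.5 TPM on day 2 (6.26 ± 1.11 against eHB, edgeR adjusted p = 0.00131), with no overlap. The megakaryocyte marker sums of the same libraries were 3019, 2874, 20846, 595 and 974 TPM, so the libraries in which both were highest and lowest were the same. Their part in the level of Itgb3 was not tested. Itgav fell from 3.99 to 19.7 TPM to 0.651 to 3.46 TPM (-2.02 ± 0.47, edgeR adjusted p = 0.00533). Itga2 (5.71 ± 1.39, edgeR adjusted p = 0.00639) was among the matrix chains higher on day 2, at 0.061 to 6.38 TPM, and Itgb5 was lower, at 0.122 to 2.98 TPM (-5.66 ± 1.10, edgeR adjusted p = 0.00207). Itgb1 was not called (0.31 ± 0.19, edgeR adjusted p = 0.199).

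The myeloid chains Itgam and Itgax were higher in the CD45-positive cells of day 3 than in the CD45-negative cells of day 2. Day and sort cannot be told apart in this comparison. Of 25 tested members, 5 were higher on day 3 and none lower, against 7.31% and 2.87% of all genes; DESeq2 called 2 members lower, and 2 had an unadjusted edgeR p under 0.05 in that direction. Of the 5, 4 were leukocyte chains; Itgae and Itgb5 fell outside the naming rule and were named after their values were seen. Itgam, the Mac-1 alpha chain, was 0.531, 0.082, 0.356, 0.263 and 0.43 TPM on day 2 and 22.4, 43.6, 79.6, 31.6 and 37.6 TPM on day 3 (6.88 ± 0.55, edgeR adjusted p = 0.000464). Itgax, the CD11c chain, was 0.041 to 0.346 TPM on day 2 and 6.79, 5.69, 18.7, 8.41 and 12.6 TPM on day 3 (5.82 ± 0.69, edgeR adjusted p = 0.00137). The libraries of the 2 days did not overlap for either gene. Itgam lies at chr7:128062640-128118491, Itgax at chr7:128129547-128150657, and Itgad, the next gene at chr7:128154376-128223816, was at most 0.5 TPM on day 3.

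Itgal was already present on day 2 and was 87.1, 159, 231, 97.3 and 117 TPM on day 3 (2.67 ± 0.68, edgeR adjusted p = 0.0354). That call was lost without any 1 of 7 of the 10 libraries, with adjusted p = 0.0527 to 0.0864, and was kept with the line as a block (3.23 ± 0.52, edgeR adjusted p = 0.0119). Itgae was also higher on day 3 but at 0.688 to 3.42 TPM (3.58 ± 0.59, edgeR adjusted p = 0.0053). Itgb2 (0.87 ± 0.80, edgeR adjusted p = 0.527) and Itgb7 (1.98 ± 0.75, edgeR adjusted p = 0.121) were not called. With the line as a block Itgb7 was called (2.43 ± 0.41, edgeR adjusted p = 0.0144). The count of called members was 3 without the day 2 library of FL4 or RB4.6.9, or without the day 3 library of M5, FL4 or FL10. Neutrophil markers summed to 25.9 to 109 TPM on day 2 and to 1316 to 26711 TPM on day 3. Macrophage markers summed to 2.63 to 9.75 TPM on day 2 and to 100 to 400 TPM on day 3. The part of either list in these differences was not tested.

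Itgb5 was the matrix chain called higher on day 3 than on day 2 by edgeR, at 3.69, 2.37, 15, 12.4 and 30.8 TPM (3.37 ± 0.87, edgeR adjusted p = 0.0379), with overlapping groups. That call was lost without any 1 of 7 of the 10 libraries (day 2 M5, FL4, RB3.6.5 or RB4.6.9, or day 3 M5, FL4 or FL10). DESeq2 and the fit of all 9 groups also called Itgav higher. The 3 lines not derived from ES cells held the higher values.

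**Figure D3:**
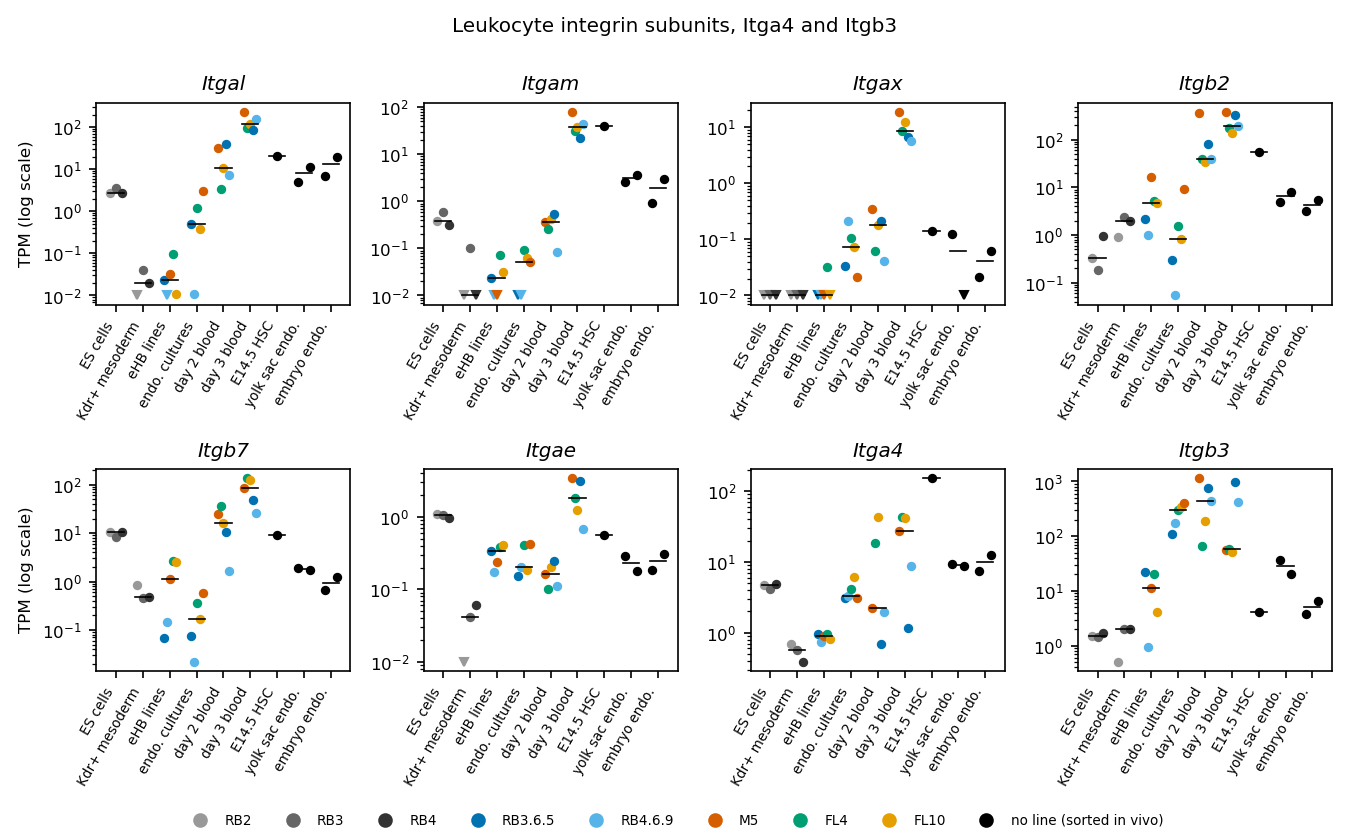
TPM on a log scale of 6 leukocyte subunits, the shared chain Itga4 and Itgb3 in each library, by group, with 1 point a library coloured by line and a bar at the group median. Triangles mark libraries at or below 0.01 TPM. Itgal and Itgb2 are raised in day 2 blood, sorted without CD45. Itgam and Itgax are under 1 TPM there and higher in day 3 blood, sorted with CD45.

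Day 3 blood lines differed from each other in Itgb3, Itga4 and Itgb7. Itgb3 was 989.9 and 423 TPM in the ES-derived lines and 55.9, 59.5 and 51.5 TPM in M5, FL4 and FL10. Itga4, the VLA-4 alpha chain, ran the other way, at 1.17 and 8.88 TPM against 27.8, 43.2 and 41.6 TPM, and so did Itgb7, at 49.3 and 25.5 TPM against 84.8, 136 and 125 TPM. The megakaryocyte marker sums were 11975 and 5119 TPM in the ES-derived and 764, 685 and 481 TPM in the other libraries. Origin and library makeup cannot be told apart here, and the difference by origin was not tested.

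Blood and endothelium of the same lines differed in the levels of most tested members on day 3, but shared many chains. Matrix chains made up 28.7% to 72.7% of the subunit TPM in day 3 blood, with Itga2b left out. Itgb1 was 133 to 218 TPM there, Itga5 28.6 to 45.5 TPM and Itga6 29.1 to 104 TPM. The factors differed as well, only the blood cells were sorted, and a low oxygen level is stated for blood alone. The part of these conditions in the differences was not tested. Of 25 tested members, 9 were higher and 11 lower in day 3 blood than in endothelial cultures, against 31.1% and 30.2% of all genes. All 6 leukocyte chains tested were higher, with a median log2 fold change of 7.32. Of 13 matrix chains, 8 were lower, 1 was higher and 4 were not called, with a median of -2.59, beside 0.02 for all genes.

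Itgam was at most 0.093 TPM in the endothelial cultures and at least 22.4 TPM in blood (10.45 ± 0.75, edgeR adjusted p = 2.81e-06). Itgb7 was 0.076, 0.022, 0.585, 0.363 and 0.166 TPM in the cultures and 25.5 to 136 TPM in blood (8.87 ± 0.85, edgeR adjusted p = 1.47e-05). Itgal (7.48 ± 1.08, edgeR adjusted p = 0.000197), Itgb2 (7.17 ± 1.28, edgeR adjusted p = 0.000763) and Itgax (7.16 ± 0.66, edgeR adjusted p = 1.14e-05) differed likewise. For all 5 genes the lowest blood library was above the highest endothelial culture, which for Itgal and Itgb2 was M5.

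In the other direction, Itga3 was 2.39, 0.801, 0.46, 0.094 and 0.469 TPM in blood (-8.76 ± 1.01, edgeR adjusted p = 4.81e-05), against at least 231 TPM in the cultures. Itga2 (-4.56 ± 1.15, edgeR adjusted p = 0.00583), Itga1 (-3.34 ± 0.59, edgeR adjusted p = 0.000705) and Itga9 (-3.19 ± 0.37, edgeR adjusted p = 5.3e-05) were lower too, without overlap. Itga2 was 5.85 and 12.7 TPM in day 3 blood of the ES-derived lines and under 0.5 TPM in that of M5, FL4 and FL10. Itgb5 went against its class and was higher in blood (4.52 ± 0.86, edgeR adjusted p = 0.0011), since the cultures held at most 1.23 TPM. Itgb3 was not called (0.87 ± 0.92, edgeR adjusted p = 0.434).

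**Figure D4:**
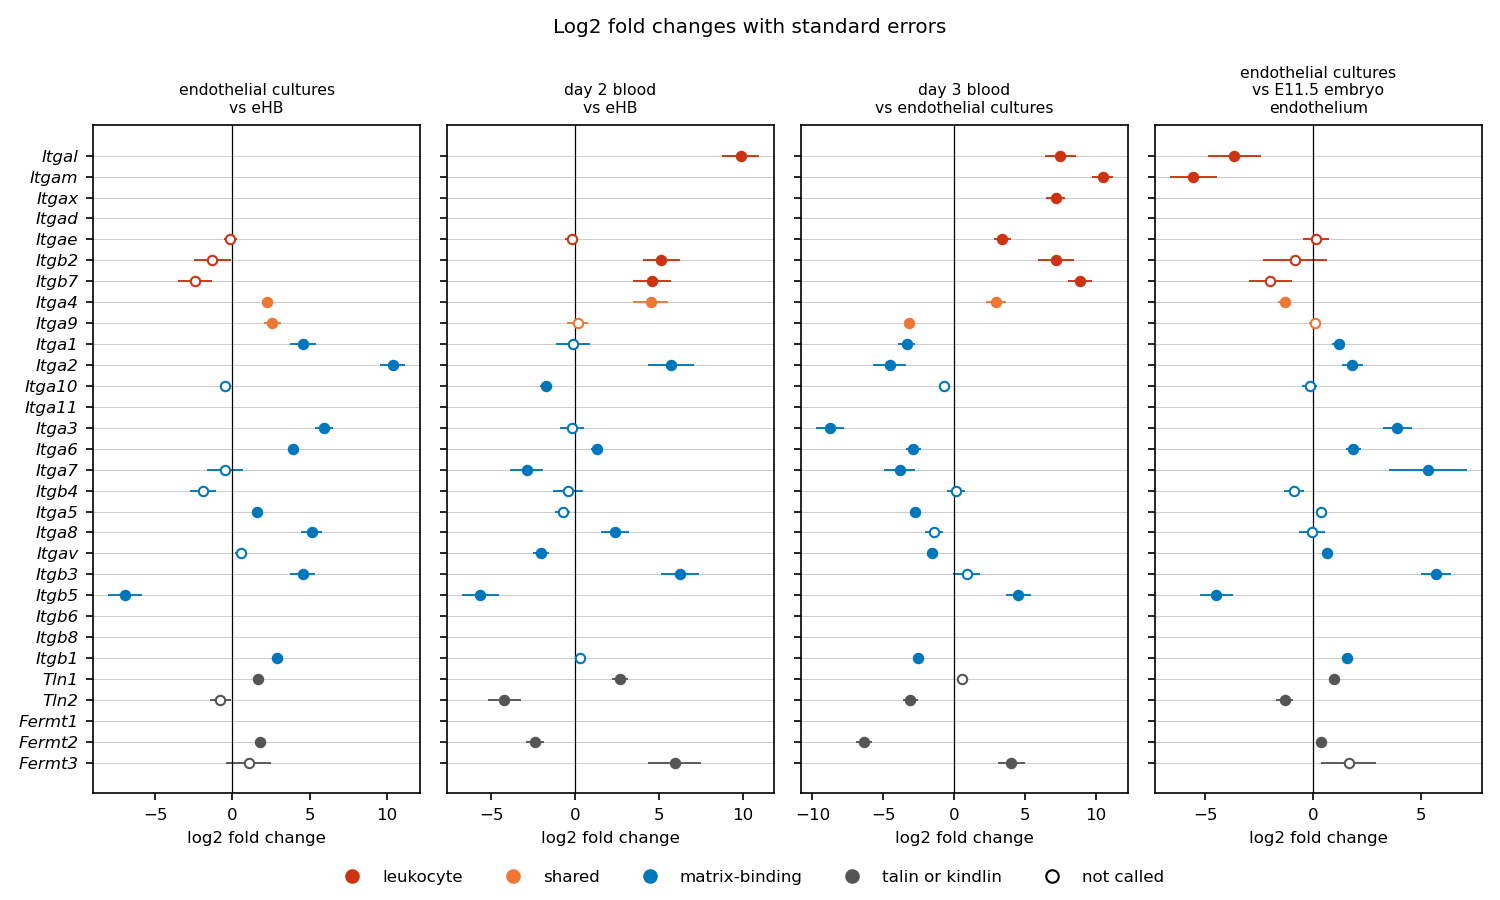
Log2 fold change (horizontal axis, first group minus second) with its standard error for each tested member in 4 comparisons, coloured by class, with open points for members not called at an adjusted p of 0.05. The leukocyte points lie on the right and most matrix points on the left in day 3 blood against endothelial cultures.

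The cytoplasmic activators separated the same cells. Fermt2 was 71.2, 81.7, 49.6, 29 and 54.5 TPM in eHB and rose to 182 to 209.6 TPM in endothelial cultures (1.8 ± 0.22, edgeR adjusted p = 3.79e-05). It was 4.93, 17.6, 4, 1.1 and 8.94 TPM in day 2 blood (-2.42 ± 0.54 against eHB, edgeR adjusted p = 0.0043) and 0.353 to 2.9 TPM in day 3 blood (-6.38 ± 0.57 against endothelial cultures, edgeR adjusted p = 9.22e-06). Every blood library was below every eHB and endothelial library.

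Fermt3 ran opposite to Fermt2 in blood only. In endothelial cultures Fermt3 was above the eHB library of the same line for every line. EdgeR called that rise with the line as a block (2.84 ± 0.52, edgeR adjusted p = 0.00294), but not in the fit without a block. It reached 1131, 938, 2188, 609 and 451 TPM in day 2 blood (5.93 ± 1.60 against eHB, edgeR adjusted p = 0.0106), above all eHB lines including M5 at 139 TPM. In day 3 blood it was 1430.0, 701, 427, 463 and 443 TPM, against 26.3, 9.86, 209, 50 and 13 TPM in endothelial cultures (4.01 ± 0.95, edgeR adjusted p = 0.00407). Fermt3 made up 98.1% to 99.9% of kindlin TPM in blood, 99.3% in HSCs, 5.14% to 52% in endothelial cultures and 9.02% to 19.2% in the E11.5 endothelium. The endothelial culture with 52% was M5, which also had the highest megakaryocyte marker sum of that group (1558 TPM against 63.4 to 157 TPM), and their part in it was not tested. Fermt2 lies at chr14:45458795-45530118 and Fermt3 at chr19:6998958-7019469, and Fermt1 was at most 0.927 TPM in any library.

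Among the talins, Tln1 rose in endothelial cultures and in blood. It was 90.5, 55.2, 132, 151 and 120.4 TPM in eHB, 279, 296, 408, 395 and 369.9 TPM in endothelial cultures (1.69 ± 0.27, edgeR adjusted p = 0.000285) and 520.5, 416, 752, 157 and 282 TPM in day 2 blood (2.69 ± 0.48, edgeR adjusted p = 0.00136). The difference of day 3 blood from endothelial cultures was not called (0.56 ± 0.39, edgeR adjusted p = 0.24). Tln2 was 19, 36.5, 1.11, 9.65 and 12 TPM in eHB and 0.02 to 1.4 TPM in day 2 blood (-4.22 ± 0.98, edgeR adjusted p = 0.0052), and it was lower in day 3 blood than in endothelial cultures (-3.09 ± 0.51, edgeR adjusted p = 0.000485). Its share of talin TPM was 17.9% to 18.7% in ES cells, 0.832% to 39.8% in eHB, 0.903% to 3.34% in endothelial cultures and at most 0.582% in blood. Tln1 lies at chr4:43531519-43562691 and Tln2 at chr9:67217087-67559703.

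**Figure D5:**
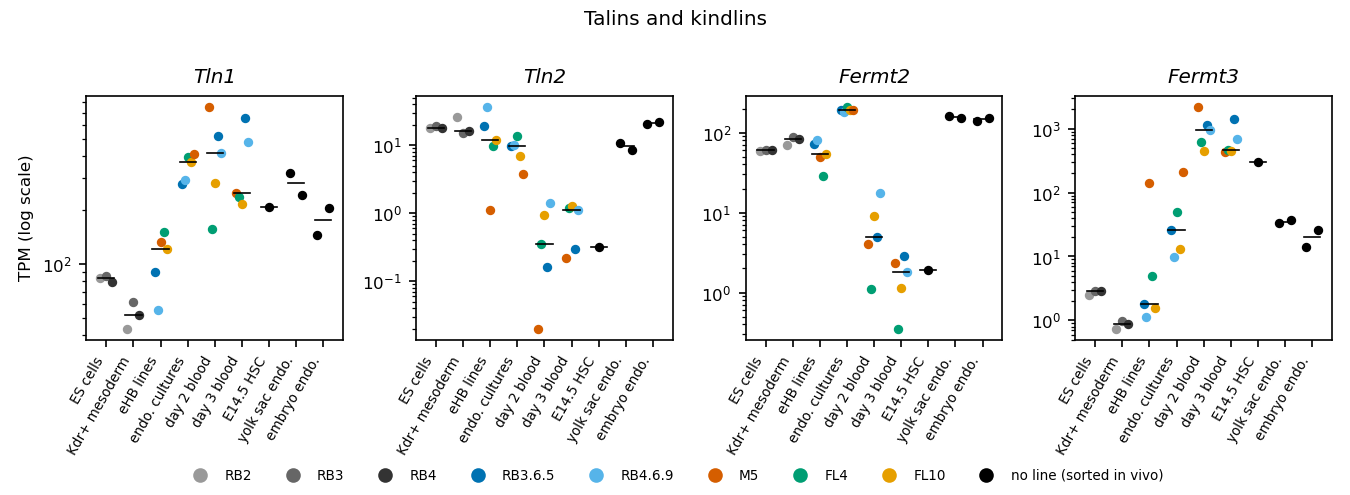
TPM on a log scale of both talins and of 2 kindlins in each library, by group, with 1 point a library coloured by line and a bar at the group median. Fermt2 is above Fermt3 in every endothelial culture except that of M5, and below it in every blood library. Tln2 has its lowest group medians in blood and HSCs.

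Cultured endothelium carried more Itgb3, Itga3, Itga6 and Itgb1 than endothelium sorted from the E11.5 embryo. Of 24 tested members, 10 were higher and 5 lower in culture, against 22% and 23.4% of all genes. Itgb3 was 3.74 and 6.61 TPM in the 2 embryo libraries and 111 to 405 TPM in the cultures (5.70 ± 0.69, edgeR adjusted p = 0.000995). Itga3 was 30 and 37.9 TPM in the embryo against 231 to 911 TPM (3.92 ± 0.67, edgeR adjusted p = 0.00359), and Itga6 was 137 and 214 TPM against 413 to 838 TPM (1.86 ± 0.35, edgeR adjusted p = 0.00471). Itgb1 was 437 and 498 TPM in the embryo, below every culture (1.58 ± 0.20, edgeR adjusted p = 0.00107).

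Itga2 (1.83 ± 0.49, edgeR adjusted p = 0.0205) and Itga7 (5.33 ± 1.82, edgeR adjusted p = 0.0468) were also higher, but Itga7 was spread from 0.664 to 28.7 TPM over the cultures. Itgb5, which had almost gone from the cultures, was 14 and 17.5 TPM in the embryo (-4.48 ± 0.76, edgeR adjusted p = 0.00342). Itga4 (-1.31 ± 0.29, edgeR adjusted p = 0.0092), Tln2 (-1.30 ± 0.39, edgeR adjusted p = 0.03) and Itgal (-3.65 ± 1.24, edgeR adjusted p = 0.0453) were lower in culture. Itgal was 6.93 and 19.4 TPM in the embryo libraries, whose leukocyte markers summed to 448 and 538 TPM against 47.4 to 153 TPM in the cultures, and their part in it was not tested. The count of called members was 7 without embryo replicate 1 and 7 without embryo replicate 2, and it was 8 with all 9 groups in 1 fit. In each of these 3 fits the calls of both collagen chains, Itga1 and Itga2, were lost. The calls of Itga7, Itgal and Tln2 were lost without either embryo library too, and that of Itga4 without embryo replicate 2. Itga5 was not called (0.38 ± 0.14, edgeR adjusted p = 0.0613).

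Yolk sac endothelium had higher levels of several matrix chains than embryo endothelium. Of 24 tested members, 8 were higher and 1 lower, against 15.9% and 8.54% of all genes. Itgb3 was 37.3 and 20.8 TPM in yolk sac (2.46 ± 0.29, edgeR adjusted p = 0.000176), Itgb5 was 59.8 and 52.5 TPM (1.79 ± 0.18, edgeR adjusted p = 6.39e-05) and Itga3 was 122 and 94.3 TPM (1.63 ± 0.19, edgeR adjusted p = 0.000152). Itgb4, the hemidesmosome chain that pairs with Itga6, was 7.08 and 6.38 TPM against 1.21 and 1.67 TPM (2.20 ± 0.25, edgeR adjusted p = 0.000152). Itga8 was 16.4 and 6.37 TPM against 3.15 and 5.14 TPM (1.42 ± 0.38, edgeR adjusted p = 0.0231). The Itga8 call was lost with no filter on low counts, with limma, without either embryo library, and without yolk sac replicate 1, where the log2 fold change was 0.64. Tln2 was lower, at 10.7 and 8.48 TPM against 20.4 and 22.1 TPM (-1.20 ± 0.19, edgeR adjusted p = 0.00106).

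The yolk sac libraries also held markers of other cells. The 4 fibroblast markers summed to 516 and 574 TPM against 5.28 and 7.42 TPM in the embryo, and 4 epithelial markers to 454 and 544 TPM against 4.25 and 5.74 TPM. All markers of both lists were detected at 1 TPM or more in the yolk sac. Megakaryocyte markers, Itga2b among them, summed to 243 and 247 TPM against 52.7 and 76 TPM, macrophage markers to 681 and 685 TPM against 191 and 299 TPM, and smooth muscle and pericyte markers to 165 and 182 TPM against 21.9 and 20 TPM. Leukocyte markers were higher in the embryo, at 448 and 538 TPM against 319 and 345 TPM in yolk sac. Erythroid markers summed to 948 and 10818 TPM in the embryo and to 2285 and 3828 TPM in yolk sac. The part of any of these markers in the integrin differences was not tested. With all 9 groups in 1 fit, edgeR called none of the 9 members, and 1 member had an unadjusted p under 0.05; DESeq2 on the yolk sac and embryo libraries called 10.

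The HSC library had more Itga4 and less of 8 other members than day 3 blood. With a single HSC library there was no test, and a gene was counted when its difference in log2(TPM + 1) from the mean of the 5 blood libraries was 1 or more and its level lay outside their range, as held for 41.4% of the 12925 genes at 1 TPM or more in any of the 6 libraries. Itga4 was 152 TPM in HSCs against 1.17 to 43.2 TPM in blood and was the only member higher. The members lower in HSCs numbered 8, so of the 30 members 1 was higher and 8 were lower. Itgad, Itga11, Itga7, Itgb6, Itgb8 and Fermt1 were under 1 TPM in all 6 libraries and could not be counted. The share of all genes covers both directions and leaves such genes out. The remaining members were not counted more often than that share. Itgb3 was 4.09 TPM against 51.5 to 989.9 TPM, Itgax 0.14 TPM against 5.69 to 18.7 TPM, Itgal 20.5 TPM against 87.1 to 231 TPM, and Itgb2 54.7 TPM against 139 to 384 TPM. The other 4 were Itgb7, Itga1, Itgb5 and Fermt3. Itgam was 40.2 TPM in HSCs, within the blood range of 22.4 to 79.6 TPM, and so were Itgb1 (205 TPM) and Itga6 (51 TPM).

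Partners of the adhesion complex were taken from a list of 37 genes. In endothelial cultures 27 of 36 tested were higher than in eHB and none lower (none had an unadjusted edgeR p under 0.05 in that direction), against 34.3% and 35.6% of all genes. Tns1, a tensin linking integrins to actin, rose from a mean of 0.613 to 128 TPM (7.72 ± 1.04, edgeR adjusted p = 7.88e-05), and Rasgrp2, the exchange factor that activates Rap1 upstream of talin, from 0.343 to 70.3 TPM (7.69 ± 0.53, edgeR adjusted p = 9.18e-07). In day 2 blood 20 of 36 were higher than in eHB and 1 lower, against 28.5% and 25.5% of all genes. Rasgrp2 was among those higher, at a mean of 84.2 TPM (8.70 ± 0.95, edgeR adjusted p = 0.000125). Between day 2 and day 3 of blood culture 2 of 36 were higher, against 7.31% of all genes, so the list was not called more often than other genes. They were Parvg, the blood parvin, from 0.693 to 38.3 TPM (5.67 ± 0.58, edgeR adjusted p = 0.000924), and Apbb1ip, the Rap1 effector RIAM, from 2.16 to 45 TPM (4.27 ± 0.44, edgeR adjusted p = 0.000924). In day 3 blood against endothelial cultures 6 of 36 were higher and 14 lower, against 31.1% and 30.2% of all genes, and Parva, the broadly used parvin, was lower (0.356 against 145 TPM, -8.40 ± 1.23, edgeR adjusted p = 0.000213).

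Of 18 ligands and counter-receptors, 9 of 15 tested were higher and 2 lower in endothelial cultures than in eHB, against 34.3% and 35.6% of all genes. Tnc, the tenascin bound by Itga9, rose from 0.551 to 1413 TPM (11.31 ± 1.03, edgeR adjusted p = 5.2e-06), and Spp1, osteopontin, from 0.0612 to 139 TPM (11.19 ± 0.89, edgeR adjusted p = 2.2e-06). Both were also above the E11.5 embryo endothelium, where Tnc was 3.15 TPM (8.80 ± 0.45, edgeR adjusted p = 0.00014). In the opposite direction, Icam1, the counter-receptor of Itgal and Itgam, was 3 TPM in the cultures and 125 TPM in the embryo (-5.32 ± 1.54, edgeR adjusted p = 0.0261). The 3 TPM of Icam1 is a mean with a standard deviation of 5.7 TPM, so the cultures were uneven. Madcam1, the counter-receptor of Itga4 with Itgb7, was 9.24 and 94.7 TPM (-3.35 ± 0.80, edgeR adjusted p = 0.0131). Of the 15 tested ligands, 10 were lower in day 3 blood than in endothelial cultures and 1, Icam1, was higher (3.92 ± 1.21, edgeR adjusted p = 0.017), against 30.2% of all genes lower and 31.1% higher.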

How the data were processed

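RNA-seq libraries of 31 mouse samples were made with a Tru-seq kit from total RNA, per the labels' protocols. The authors deposited expected counts and TPM per gene, whose upstream tools were RSEM 1.2.3, Bowtie 0.12.9 and CASAVA 1.8.2 with build mm10, per the submitters' processing notes. The tools' roles and the strand setting are not given in the sources used here, and RSEM divides reads that fit several genes, so values of similar genes are estimates. How the deposited TPM were renormalised is not given either. The header of the TPM table held 1 name more than its rows had cells, and with columns taken by position 31 of 31 TPM columns were nearest to their own count column.

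Expected counts were rounded to whole numbers and tested with edgeR 4.0.16 in R 4.3.3 (filterByExpr, TMM, robust quasi-likelihood test, only the groups compared). P-values were adjusted by Benjamini-Hochberg over all genes, and a gene was called at 0.05. Log2 fold changes are given with their standard error, first group minus second. Levels are the deposited TPM. Alternatives were DESeq2 1.42.0, its size factors, no filter on low counts, limma 3.58.1 on log2(TPM + 1), all 9 groups in 1 fit, the line or replicate number as a block, and leaving out each library. On simulated data, 4-fold changes were recovered for 73% (yolk sac against embryo) to 100% of changed genes. Recovery of 2-fold changes was 5% (the same comparison) to 45% (day 2 blood against eHB). The simulation gave every gene in every comparison the same fixed spread, which was not taken from these data. These shares therefore do not give the recovery for genes that differed more between lines, as many members did. Intervals and floors were not used, and depth limits low genes through the count filter alone.

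Members and lists were chosen with earlier results of these data known. Named in each comparison were called members whose groups did not overlap and whose higher group averaged at least 5 TPM, up to 5 in each direction, and members called against their class; of list genes, up to 3 in each direction at 20 TPM or more, of which the text gives some. Other members were named as partners or neighbours of these, after their values were seen. The same line pairs samples across groups, per the labels. Deviations of same-line samples correlated at 0.297 to 0.431 in endothelial cultures against eHB and at -0.0775 to 0.0712 in mesoderm against ES cells. The numbers of the yolk sac and embryo replicates pair nothing by the labels. Promoter windows come from RefSeq (GRCm38.p6), where 21 of the 30 members were matched, and positions from GENCODE (GRCm38). Itgal, Itgad, Itgb2, Tln2, Itgb4, Itga7, Itgb3, Itgae and Itga6 were not matched.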

Additional observations from a re-analysis of the deposited data

Results flagged for a closer look

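In the eHB group, 3 members had 1 library far from the other 4, in each case line M5: Itga9 at 1.92 TPM (others 13.7 to 24.2 TPM), Itgb5 at 1.85 TPM (others 67.6 to 185 TPM) and Fermt3 at 139 TPM (others 1.12 to 4.94 TPM). In all, 55 combinations of a member and a group were examined and chance flags about 1 in 20.

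In day 3 blood against endothelial cultures of the same line, Itgb3 was higher in both ES-derived lines and lower in the 3 others. The mean difference in log2(TPM + 1) was 2.21 in the ES-derived and -2.62 in the other lines, 4.83 apart. Tln1 did the same, at 0.96 and -0.74, which is 1.70 apart. The difference between origins was not tested.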

How the results depend on the processing

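No member named by the rule changed direction: of 674 values of named members under the alternatives, 631 kept their call and 43 lost it. All such calls of endothelial cultures and of day 2 blood against eHB, and of day 3 blood against endothelial cultures, were kept under every alternative run. With all 9 groups in 1 fit, called members numbered 13 in mesoderm against ES cells (20 in the separate fit), 9 in day 3 against day 2 blood (5), 8 in endothelial cultures against embryo (15) and 0 in yolk sac against embryo (9), and called genes numbered 3324 in day 3 against day 2 blood (1230) and 662 in yolk sac against embryo (3343). DESeq2 called 11 members in eHB against mesoderm (6 with edgeR), and 9 members and 2410 genes in day 3 against day 2 blood. Leaving out 1 library gave 3 to 6 members and 657 to 1930 genes in day 3 against day 2 blood, the fewest genes without day 3 M5 and the most without day 3 RB3.6.5. It gave 7 to 15 members and 3415 to 6512 genes in endothelial cultures against embryo (6235 with all libraries), the fewest without embryo replicate 1.

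With the line as a replicate block, called members numbered 20 in mesoderm against ES cells, 16 in endothelial cultures against eHB (13 without it), 14 in day 2 blood against eHB (16), where Itga7 and Itga8 were lost, 7 in day 3 against day 2 blood (5) and 20 in day 3 blood against endothelial cultures (20), where Itga7 was lost and Itga10 gained. With the replicate number as a block, yolk sac against embryo kept 9 members and 2974 genes. Same-numbered samples there deviated in opposite ways (correlation -0.175), and the crossed pairing, added after the data were seen, gave 11 members and 5139 genes. On log2(TPM + 1) with limma the median of all genes moved to -0.29 in mesoderm against ES cells, 0.27 in eHB against mesoderm, -0.56 in day 2 blood against eHB and -0.34 in day 3 blood against endothelial cultures, and no member named by the rule changed sign. The causes were not tested.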
